A study of Mus musculus with 3 samples.

Results

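Endothelial cells of mouse inguinal fat with lymphatic markers, or with Selp and Vwf, were described from single-cell RNA counts. The cells were picked by their own transcripts, so the values of the genes used to pick them are a description. A barcode had to hold at least 500 genes and at most 15% mitochondrial UMIs (molecular tags, of which 1 stands for 1 RNA molecule caught from the cell). It also had to hold at least 2 UMIs of Pecam1, Cdh5, Egfl7 and Cldn5 together and none of Ptprc, the pan-leukocyte gene. Among these 1045 endothelial cells, at least 2 UMIs of Selp, Vwf, Mmrn1, Prox1 and Ccl21a together chose 144 members, of 16838 barcodes past the filters and 20667 in all. A member counted as lymphatic where Mmrn1, Prox1 and Ccl21a together equalled or exceeded Selp and Vwf, which gave 52 lymphatic cells. The other 92 are called Selp/Vwf cells here, since their transcripts only partly matched the label of venous cells. The remaining 901 endothelial cells served for comparison.

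The cells came from the stromal vascular fraction, which is fat tissue without its adipocytes, taken from the inguinal depot of C57BL/6 animals. The groups were mice kept at 4 C for 3 days (cold), mice injected intraperitoneally with CL 316,243, a β3-adrenergic agonist, at 1 mg/kg for 3 days (CL), and saline controls. Each group was 1 library, made by the 10x Chromium 3′ method. How many mice went into a library, their age and their sex, and whether cold mice were injected, are not stated by the labels. No difference between treatments therefore has a replicate check.

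Lymphatic vessels drain fluid, lipid and immune cells from tissue, and their endothelium is set apart from blood endothelium by the transcription factor Prox1. Veins and venules are the vessels where leukocytes leave the blood, and their endothelium stores P-selectin (Selp) and von Willebrand factor (Vwf) in Weibel-Palade bodies. Mmrn1 encodes multimerin, a large secreted glycoprotein of lymphatic endothelium and platelets, and Ccl21a encodes a chemokine that draws dendritic cells and naive T cells into lymphatics.

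The cold, CL and saline libraries held 10, 1 and 41 lymphatic cells, 29, 14 and 49 Selp/Vwf cells, and 277, 320 and 304 other endothelial cells. Summed depth was 272840 UMIs in lymphatic cells, 470753 in Selp/Vwf cells and 3572095 in other endothelial cells, with medians of 4257, 3779 and 2801 UMIs per cell. Levels are counts per 1000000 summed UMIs (CPM). In the single CL lymphatic cell 1 UMI is worth 274.1 CPM, so this cell adds almost no precision. Selection by 2 UMIs has an edge: 33 members had exactly 2 of these UMIs (4 lymphatic, 29 Selp/Vwf), and 61 other endothelial cells had 1. Of the barcode sequences, 34 occurred in more than 1 library, and no member had one. Cells of mixed lineage, with at least 2 UMIs of the fibroblast, of the mural or of the B cell, T cell and macrophage lists, were 7 of 52 lymphatic, 36 of 92 Selp/Vwf and 306 of 901 other endothelial cells. Scrublet called 1 lymphatic and 1 Selp/Vwf cell as doublets, but it marked 0.104% of cold cells and cannot be taken to have worked in that library.

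The genes that chose the cells were distributed as follows. Prox1 had UMIs in 49 of 52 lymphatic cells, 7 of 92 Selp/Vwf cells and 4 of 901 other endothelial cells. Its level in lymphatic cells was 1202 CPM in cold, 3289 CPM in the CL cell and 1051 CPM in saline. Mmrn1 was found in 43 lymphatic cells, in none of the Selp/Vwf cells and in 1 other endothelial cell, with 970 CPM in cold, 1096 CPM in CL and 879 CPM in saline lymphatic cells. Both genes were present in lymphatic cells of every library. Vwf had UMIs in 90 of 92 Selp/Vwf cells and 7 of 52 lymphatic cells, and averaged 1039 CPM in cold, 795 CPM in CL and 1016 CPM in saline Selp/Vwf cells. Selp was found in 36 of 92 Selp/Vwf cells, 5 of 901 other endothelial cells and 4 of 52 lymphatic cells, where it had 25 UMIs, all in saline. Its level in Selp/Vwf cells was 286 CPM in cold, 190 CPM in CL and 653 CPM in saline. These genes were rare in the 10346 leukocytes (median 3438 UMIs), with a Selp UMI in 0.222%, a Vwf UMI in 0.947% and a Prox1 UMI in 0.300%. The source of these UMIs was not tested.

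Ccl21a was not a general feature of the lymphatic cells. Its 83 UMIs fell in 3 saline cells, with 12 to 39 UMIs each, and the 10 cold cells and the CL cell had none. All 3 of those cells carried Reln (reelin, a secreted glycoprotein), and 2 carried Lyve1, the hyaluronan receptor of lymphatic capillaries. Mouse Ccl21 exists in near-identical copies, and the rows for Ccl21b and Ccl21c were at 0 in every library, so reads of the copies may have been assigned to Ccl21a or dropped. The coding sequences of Ccl21a and Ccl21b show how close the copies are: across positions 64 to 214, counted from 1 at the A of the start codon of a 402-base coding sequence, they differ only at the 2 bases in capitals. The stretches lie at chr4:42773523-42773855 (minus strand) for Ccl21a and chr4:42255830-42256162 (plus strand) for Ccl21b in GRCm38, with an intron inside each.
Ccl21a: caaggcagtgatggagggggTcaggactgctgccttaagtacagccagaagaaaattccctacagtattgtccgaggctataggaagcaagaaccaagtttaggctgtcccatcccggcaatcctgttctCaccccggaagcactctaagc
Ccl21b: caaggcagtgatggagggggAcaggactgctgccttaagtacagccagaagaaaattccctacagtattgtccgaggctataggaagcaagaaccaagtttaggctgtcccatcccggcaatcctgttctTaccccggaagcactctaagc
Written with the Ccl21a base first, the differences are T84A in codon 28, which leaves the amino acid as it is, and C194T in codon 65, which changes it. Only the coding sequences were compared, and not the rest of the transcripts, so how reads were shared among the copies was not settled. The copy behind a Ccl21a count remains uncertain.

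**Figure D1:**
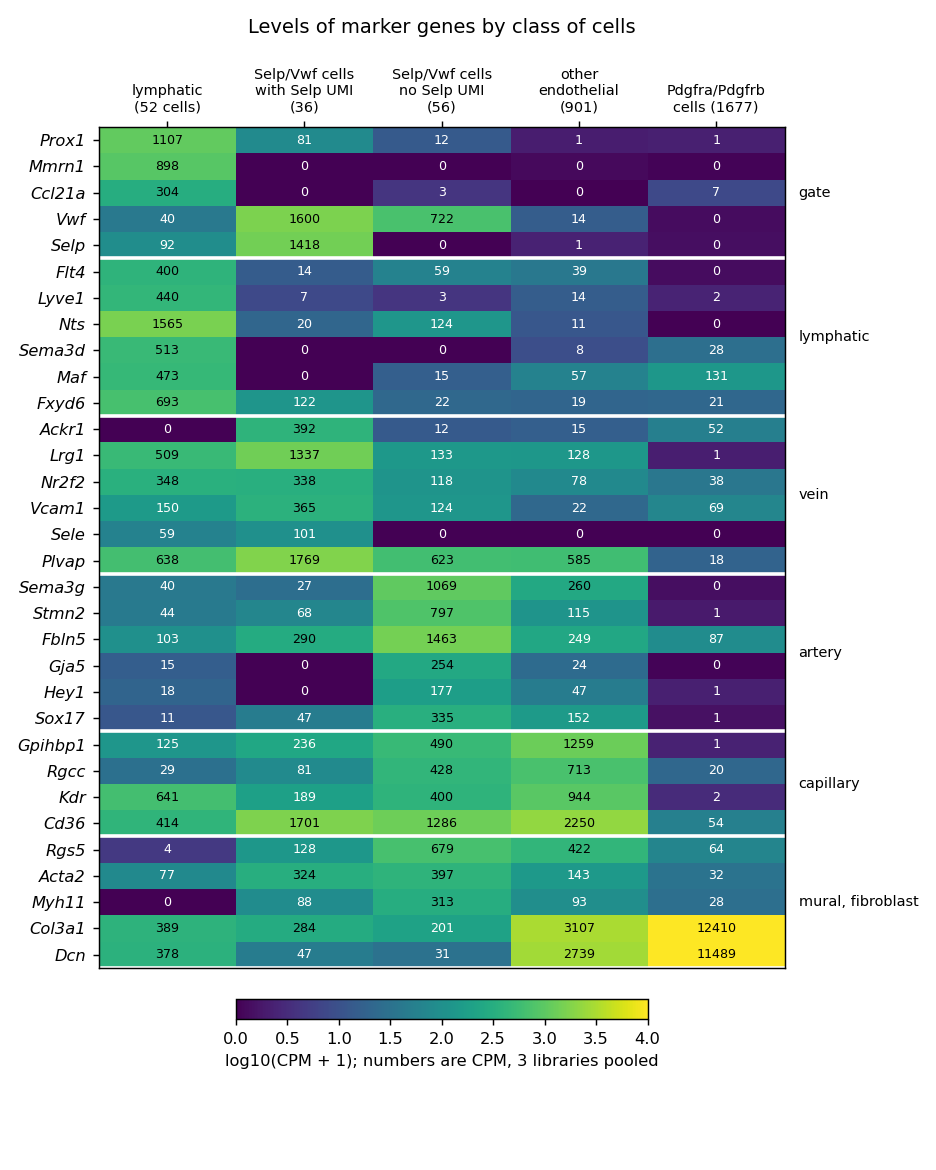
Heat map of the level (CPM, rounded, over the 3 libraries pooled; colour is log10(CPM + 1)) of marker genes in rows, by class of cells in columns. Prox1, Mmrn1 and Sema3d are high in the lymphatic column, Ackr1 and Lrg1 are high in Selp/Vwf cells with a Selp UMI, and Sema3g and Gja5 are high in Selp/Vwf cells without one.

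The lymphatic cells carried a broad lymphatic transcript set beyond the genes that chose them. In a test of lymphatic over Selp/Vwf cells, 544 of 4019 genes were called at an adjusted p under 0.05 (13.5 percent), 192 higher (4.78 percent) and 352 lower (8.76 percent). The test was edgeR's quasi-likelihood test on UMIs summed per class and library, with the library as a block and Benjamini-Hochberg adjustment. The libraries stand in as replicates although they differ in treatment, and the 10 genes of the selection were left out. The count was 144 without the saline and 262 without the cold library, 329 without cells of mixed lineage, and 12 when cells over 5% mitochondrial UMIs were left out. Of the 12 tested genes of the lymphatic endothelial list, 11 were higher in lymphatic cells, with a median log2 fold change of 3.75 against -0.05 over all genes tested. The exception was Nrp2, a semaphorin and VEGF-C co-receptor, at -0.03 ± 0.37 (SE; adjusted p = 0.988).

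Flt4, the receptor for the lymphatic growth factor VEGF-C, had 422 CPM in cold, 0 CPM in CL and 401 CPM in saline lymphatic cells, against 36.4, 17.3 and 59.0 CPM in Selp/Vwf cells. It was higher by a log2 fold change of 3.13 ± 0.38 (adjusted p = 6.02e-14), with no UMI in the lone CL cell. Sema3d, a secreted semaphorin, had 253, 274 and 573 CPM in cold, CL and saline lymphatic cells and no UMI in any Selp/Vwf cell, so it was at least 80.5-fold higher with the Selp/Vwf sum set to a floor of 3 counts. Dtx1, a regulator of Notch signalling, was likewise at 0 in Selp/Vwf cells and at least 33.4-fold higher in lymphatic cells. Sema3a, another secreted semaphorin, was at least 19.6-fold higher on the same footing. The rule that named Sema3d, Dtx1 and Sema3a asked for the same direction in all 3 libraries. Their presence in lymphatic cells of each library is therefore no separate result, and CL rests on 1 cell.

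Maf, a transcription factor of lymphatic endothelium, had 274 CPM in cold, 1096 CPM in CL and 505 CPM in saline lymphatic cells, against 10.4, 0 and 13.6 CPM in Selp/Vwf cells (log2 fold change 5.37 ± 0.50, adjusted p = 8.79e-24). Tbx1, a developmental transcription factor, was higher by 3.45 ± 0.65 on the log2 scale (adjusted p = 3.84e-06). Nts, which encodes the secreted peptide neurotensin, had 1307, 1371 and 1623 CPM in cold, CL and saline lymphatic cells, against 0, 0 and 195 CPM in Selp/Vwf cells (4.16 ± 0.39, adjusted p = 3.21e-23). The Nts UMIs came from 22 of the 52 lymphatic cells, so the summed level hides cells without any. Clca3a1, of the chloride channel accessory family, was found in 42 of 52 lymphatic cells and was higher by 4.24 ± 0.40 (adjusted p = 7.82e-23). Fxyd6, a regulator of the sodium pump, was higher by 3.65 ± 0.38 (adjusted p = 8.34e-19).

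**Figure D2:**
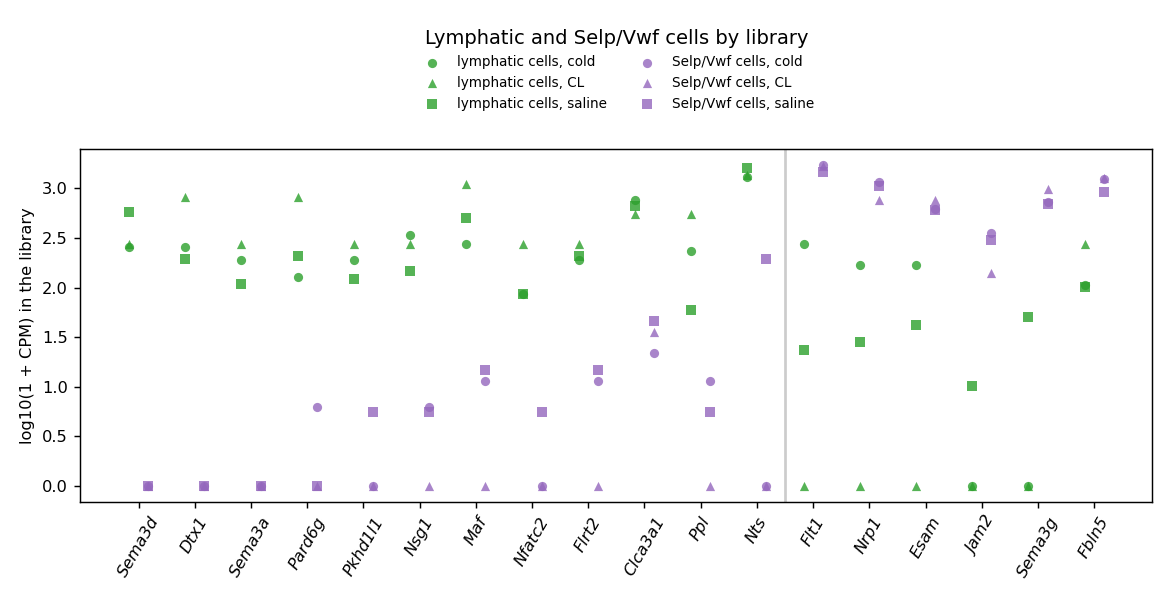
Level of 18 genes as log10(1 + CPM), with 1 point for each library and class; green points are lymphatic cells and purple points Selp/Vwf cells. Left of the line the lymphatic points lie above the Selp/Vwf points for Sema3d, Maf and Nts, and right of it they lie below, as for Flt1 and Jam2. The genes left of the line were named by a rule that asked for the same direction in all 3 libraries.

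Receptors and junction proteins of blood endothelium were low in lymphatic cells. Flt1, a VEGF receptor, had 274 CPM in cold, 0 CPM in CL and 22.5 CPM in saline lymphatic cells, against 1725, 1677 and 1465 CPM in Selp/Vwf cells, and was lower by a log2 fold change of -4.22 ± 0.50 (adjusted p = 4.90e-15). Its co-receptor Nrp1 was lower by -4.10 ± 0.51 (adjusted p = 3.21e-13). Kdr, the main VEGF receptor of blood endothelium, did not follow: it had 641 CPM in lymphatic and 333 CPM in Selp/Vwf cells (0.96 ± 0.37, adjusted p = 0.0619). Of the 13 tested growth factor and receptor genes, 1 was higher and 6 were lower.

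Of the 9 tested adhesion genes, 1 was higher and 6 were lower in lymphatic cells, with a median of -1.27. Jam2, a junctional adhesion molecule, had 2 UMIs in lymphatic cells and 143 in Selp/Vwf cells (-5.26 ± 0.68, adjusted p = 1.94e-12). Esam, an endothelial adhesion molecule of junctions, was lower by -3.15 ± 0.47 (adjusted p = 1.56e-09). Vcam1, a leukocyte adhesion molecule, had 169, 0 and 149 CPM in cold, CL and saline lymphatic cells, against 93.6, 138 and 308 CPM in Selp/Vwf cells, and did not pass the test (-0.64 ± 0.36, adjusted p = 0.292). The arterial list had 7 of 10 genes lower and none higher, and the capillary list 7 of 14 lower and none higher, with medians of -3.06 and -1.66. All 5 mural genes were lower, and Tagln, Myh11 and Notch3, which mark vascular smooth muscle and pericytes, were at 0 in lymphatic cells. Mural UMIs sat in the Selp/Vwf cells, 27 of which held at least 2. The 5 fibroblast genes all lay above 0 in lymphatic over Selp/Vwf cells, with a median of 1.86 and 1 of them called higher.

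Of the 7 tested coagulation and Weibel-Palade genes, 4 were higher and 1 was lower in lymphatic cells. Procr, the endothelial receptor of protein C, had 400 CPM in cold, 274 CPM in CL and 690 CPM in saline lymphatic cells, against 172, 86.4 and 227 CPM in Selp/Vwf cells (1.57 ± 0.32, adjusted p = 2.83e-05). Each lymphatic Procr level exceeded each Selp/Vwf level, but the CL level rests on the lone CL cell. The share of all genes with this pattern is not given here. Mmrn2, an angiostatic relative of Mmrn1, ran the other way, at -1.36 ± 0.37 (adjusted p = 0.00313). Of 7 tested chemokine and cytokine genes 3 were higher, among them Ccl2, a monocyte attractant (4.25 ± 0.46, adjusted p = 1.89e-17), and 2 were lower, among them Cxcl12 (-1.97 ± 0.47, adjusted p = 0.000523). The 15 immediate early genes did not pass the test, with 9 above 0, 6 below 0 and a median of 0.09.

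Against the other endothelial cells, lymphatic cells had 722 of 4019 genes called (18.0 percent), 270 higher (6.72 percent) and 452 lower (11.2 percent), and 247 called without the saline and 429 without the cold library. Of the 12 lymphatic list genes 11 were again higher, with a median of 4.07, and 12 of 14 capillary genes were lower, with a median of -2.80. Pgm5, a phosphoglucomutase relative found at cell junctions, was higher in both member classes: it had 216 CPM in lymphatic and 70.1 CPM in Selp/Vwf cells, against 1.40 CPM in other endothelial cells. The log2 fold changes were 6.79 ± 0.54 (adjusted p = 1.05e-33) and 5.20 ± 0.58 (adjusted p = 1.24e-16). Fibroblast UMIs moved with this comparison: Col3a1 had 389 CPM in lymphatic, 227 CPM in Selp/Vwf and 3107 CPM in other endothelial cells, and 27.1 CPM in the 595 other endothelial cells that were not of mixed lineage. Their part in the lower calls was not tested.

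The lymphatic cells differed among themselves. Lyve1 was found in 11 of 52 cells, with 120 UMIs, and 10 of the 11 were saline cells. Ackr4, a scavenger of the chemokines Ccl19 and Ccl21, was found in 23 cells, of which 1 had a Lyve1 UMI and none had Ccl21a. Marco, a scavenger receptor known on macrophages and on lymph node lymphatics, had 98 UMIs in 4 saline cells, all with Lyve1. Glycam1, a carrier of L-selectin ligand in lymph node venules, had 140 UMIs in 5 cells, 107 of them in 1 cold cell. A UMI of Marco, Ackr4 or Glycam1 was found in 31 of the 52 cells: 28 of 41 saline cells, 3 of 10 cold cells and not in the CL cell. Itga2b, the platelet integrin subunit, had 37 UMIs in 11 cells, while the platelet genes Pf4, Ppbp, Gp9 and Gp1bb were at 0. Sema3g, a gene of the arterial list, had 11 UMIs in 2 saline cells. Each of those cells held 1 Prox1 UMI, 1 Vwf UMI and no Mmrn1, and counted as lymphatic on that tie. No lymphatic cell held a T cell, mesothelial or epithelial marker UMI. Other lists were not at 0 in the lymphatic cells. The fibroblast list had 260 UMIs, the mural list 22, the macrophage list 12, the B cell list 2 and the Schwann list 1. These patterns were picked after the values were seen and carry no test.

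The Selp/Vwf cells were not of 1 kind. A Selp UMI was found in 36 of them, which were 37.9% (exact 95% interval 20.7 to 57.7) of the cold, 21.4% (4.66 to 50.8) of the CL and 44.9% (30.7 to 59.8) of the saline Selp/Vwf cells. These intervals overlap, and the other 56 cells had entered through Vwf. This split was chosen after the values were seen, so its differences are given without a test. Of the venous list, all 9 measured genes other than Selp had higher values in cells with a Selp UMI, with a median log2 ratio of 1.52; Vwf, a gene of the selection, is among them. Ackr1, an atypical chemokine receptor of venules, had 392 CPM in cells with a Selp UMI and 12.4 CPM in those without. In the Pdgfra/Pdgfrb stromal cells 25.5% also carried an Ackr1 UMI, so it is no marker of endothelium here. Lrg1, a secreted glycoprotein of activated venules, had 1337 against 133 CPM, and Nr2f2, a transcription factor that sets venous identity, had 338 against 118 CPM. In the 3 CL cells with a Selp UMI, Nr2f2 had 118 CPM, against 122 CPM in the 11 without.

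The adhesion list as a whole was divided, with 4 measured genes higher and 4 lower in cells with a Selp UMI. Sele, which encodes E-selectin, had 15 UMIs in Selp/Vwf cells, all in cells with a Selp UMI, and 16 UMIs in lymphatic cells. Icam1 had 500 CPM in cells with a Selp UMI and 143 CPM in those without, and Vcam1 had 365 and 124 CPM, but 118 and 142 CPM in the CL library. Icam2, another leukocyte ligand, ran the other way, at 176 and 446 CPM. Il6, an inflammatory cytokine, had 284 and 12.4 CPM, its 46 UMIs lying in 11 cells, and 32.2% of the stromal cells also carried an Il6 UMI.

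The promoters of Selp, of its neighbour Sele and of Ackr1 are shown. The split fixes where Selp lies, while 15 of 15 Sele and 58 of 62 Ackr1 UMIs of the Selp/Vwf cells fell in those with a Selp UMI. Each is the RefSeq sequence from 250 bases before to 50 bases after the gene start (GRCm38.p6), on the gene's own strand. Capitals mark AGGAAG, a core bound by ETS factors, or its reverse complement CTTCCT. The windows are chr1:164115014-164115313 (plus strand) for Selp, chr1:164047984-164048283 (plus strand) for Sele and chr1:173333454-173333753 (minus strand) for Ackr1.
Selp: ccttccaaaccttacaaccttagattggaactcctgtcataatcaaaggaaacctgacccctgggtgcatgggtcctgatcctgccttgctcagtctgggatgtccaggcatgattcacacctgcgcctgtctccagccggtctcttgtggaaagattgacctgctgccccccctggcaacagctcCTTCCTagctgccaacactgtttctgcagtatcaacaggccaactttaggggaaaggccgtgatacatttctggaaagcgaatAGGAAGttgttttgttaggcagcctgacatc
Sele: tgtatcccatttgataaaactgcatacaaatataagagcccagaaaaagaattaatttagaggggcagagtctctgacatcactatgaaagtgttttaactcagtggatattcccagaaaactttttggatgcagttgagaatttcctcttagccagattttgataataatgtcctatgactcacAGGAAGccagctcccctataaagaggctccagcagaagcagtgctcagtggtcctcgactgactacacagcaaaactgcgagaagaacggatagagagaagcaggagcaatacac
Ackr1: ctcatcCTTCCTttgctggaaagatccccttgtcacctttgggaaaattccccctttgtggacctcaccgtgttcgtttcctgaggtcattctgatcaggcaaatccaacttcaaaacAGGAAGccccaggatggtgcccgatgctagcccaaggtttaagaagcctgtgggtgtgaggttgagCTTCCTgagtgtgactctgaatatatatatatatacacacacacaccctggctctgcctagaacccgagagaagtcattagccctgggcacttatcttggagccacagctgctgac
Selp held 2 matches, Sele 1 and Ackr1 3, on either strand. The letters are common: 35.4% of 32851 promoters of the same length held at least 1 match. The matches describe the letters and no binding.

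All 10 genes of the arterial list had lower values in cells with a Selp UMI than in the 56 without, with a median log2 ratio of -3.34. Sema3g, a secreted semaphorin of arterial endothelium, had 27.0 CPM in cells with a Selp UMI and 1069 CPM in those without. Stmn2, a stathmin that binds tubulin, had 67.5 and 797 CPM, and Fbln5, an elastic fibre protein, had 290 and 1463 CPM. A UMI of Sema3g or Stmn2 was found in 6 of 36 cells with a Selp UMI and 49 of 56 without. The gap junction genes Gja5 and Gja4 and the Notch target Hey1 had 0 UMIs in cells with a Selp UMI, against 82, 97 and 57 UMIs in those without. Plvap, a protein of fenestral and caveolar diaphragms, had 1769 and 623 CPM. All of these ran the same way in each of the 3 libraries. The cells without a Selp UMI had more UMIs, at a median of 4560 against 3399.

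**Figure D3:**
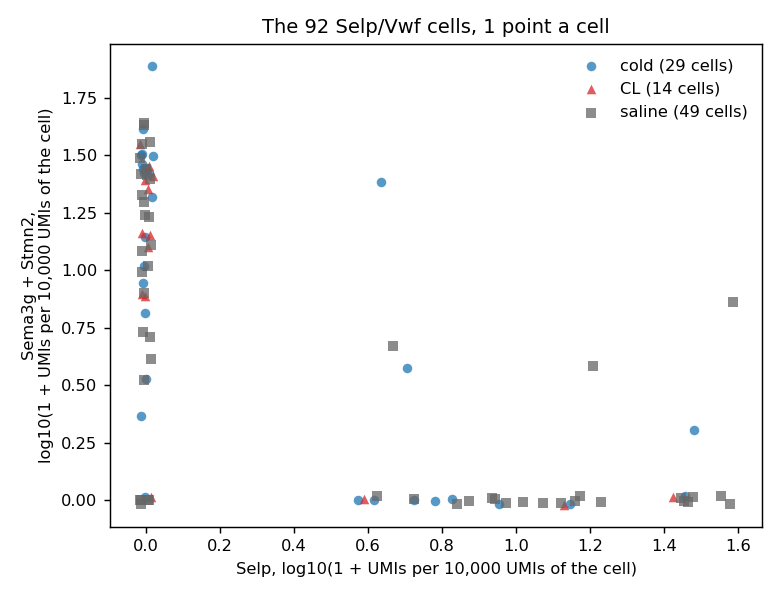
Selp (horizontal) against Sema3g + Stmn2 (vertical) in each Selp/Vwf cell, both on a log10 scale of UMIs relative to the total of the cell, with a small random shift so that points do not hide each other. Most points lie along 1 of the 2 axes: 6 of the 36 cells with a Selp UMI also hold a Sema3g or Stmn2 UMI.

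Cytl1, which encodes a small secreted cytokine-like protein, marked a further subset that cut across this split. It was found in 29 of 92 Selp/Vwf cells, 13 with and 16 without a Selp UMI, and all 29 carried Mgp, the matrix Gla protein that restrains calcification. Prox1 UMIs in Selp/Vwf cells were confined to 7 cells, and all 7 had a Cytl1 UMI and none had Mmrn1 or Flt4. Other lymphatic genes were present in these 7 cells. They held 42 of the 43 Nts UMIs of the Selp/Vwf cells, 40 of them in 1 cell, all 3 Ackr4 UMIs and 1 of 2 Lyve1 UMIs. Foxc2, a transcription factor of venous and lymphatic valves, had a UMI in 5 Selp/Vwf cells, all from the cold library.

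In the test of Selp/Vwf over other endothelial cells, 468 of 4019 genes were called (11.6 percent), 246 higher (6.12 percent) and 222 lower (5.52 percent). Without the cold library 198 were called, without saline 284, and without cells of mixed lineage 248. Both the venous and the arterial list were higher: 5 of 8 tested venous genes (median 1.35) and 8 of 10 arterial genes (median 1.43), with none lower, against a median of -0.01 over all genes. Of the capillary list 9 of 14 were lower and none higher (median -1.41). Cytl1 had 832, 432 and 635 CPM in cold, CL and saline Selp/Vwf cells, against 14.4, 6.07 and 68.9 CPM in other endothelial cells (4.50 ± 0.30, adjusted p = 3.07e-47). Mgp had 3435, 2524 and 1415 CPM, against 201, 134 and 366 CPM (3.30 ± 0.35, adjusted p = 1.85e-18). Neither gene overlapped between the classes, and the share of all 4019 genes without overlap is not given here.

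Of the venous genes, Ackr1 (2.87 ± 0.37, adjusted p = 1.21e-12), Vcam1 (2.95 ± 0.31, adjusted p = 4.56e-19), Lrg1 (1.66 ± 0.30, adjusted p = 7.56e-07) and Nr2f2 (1.04 ± 0.30, adjusted p = 0.00740) were higher. Plvap had 984 CPM in Selp/Vwf and 585 CPM in other endothelial cells and did not pass (0.45 ± 0.31, adjusted p = 0.514). Among arterial genes Gja5 (2.83 ± 0.31, adjusted p = 6.15e-18), Stmn2 (2.34 ± 0.26, adjusted p = 1.70e-16) and Bmx, a tyrosine kinase of arterial endothelium (2.95 ± 0.43, adjusted p = 5.48e-10), were higher. Gpihbp1, which anchors lipoprotein lipase in capillaries, had 410 and 1259 CPM (-1.56 ± 0.33, adjusted p = 4.12e-05). Aqp7, a glycerol channel, was lower by -2.31 ± 0.37 (adjusted p = 1.48e-08).

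Of 5 mural genes 3 were higher in Selp/Vwf cells. Tagln, a smooth muscle protein, had 397 CPM in Selp/Vwf and 133 CPM in other endothelial cells (1.67 ± 0.25, adjusted p = 2.38e-09), and its UMIs were in 27 of 92 Selp/Vwf cells. All 5 fibroblast genes were lower, as they were in lymphatic cells, and the fibroblast UMIs of the other endothelial cells given above move with this result too. Their part, and that of the mural UMIs, in the other calls was not tested.

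Members made up a smaller share of endothelial cells in the treated libraries than in saline. Lymphatic cells were 3.16% (exact Clopper-Pearson 95% interval 1.53 to 5.74) of cold, 0.299% (0.00756 to 1.65) of CL and 10.4% (7.57 to 13.9) of saline endothelial cells. Selp/Vwf cells were 9.18% (6.23 to 12.9) of cold, 4.18% (2.30 to 6.91) of CL and 12.4% (9.34 to 16.1) of saline endothelial cells. The lymphatic intervals of cold and CL lay below that of saline, and for Selp/Vwf cells only the CL interval did. The intervals cover counting error only. Of the lymphatic cells, 28 of 41 in saline and 3 of 10 in cold held a Marco, Ackr4 or Glycam1 UMI. The part of lymph node cells in these shares was not tested. With 1 library a treatment, a difference between mice or dissociations cannot be told apart from the treatment, nor can fewer cells from cells that carry fewer UMIs of the selecting genes. With each cell thinned to 2000 UMIs and shallower cells left out, lymphatic cells were 2.44% of cold, 0.549% of CL and 12.7% of saline endothelial cells, and Selp/Vwf cells were 6.91, 3.85 and 14.8%, in the same order.

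**Figure D4:**
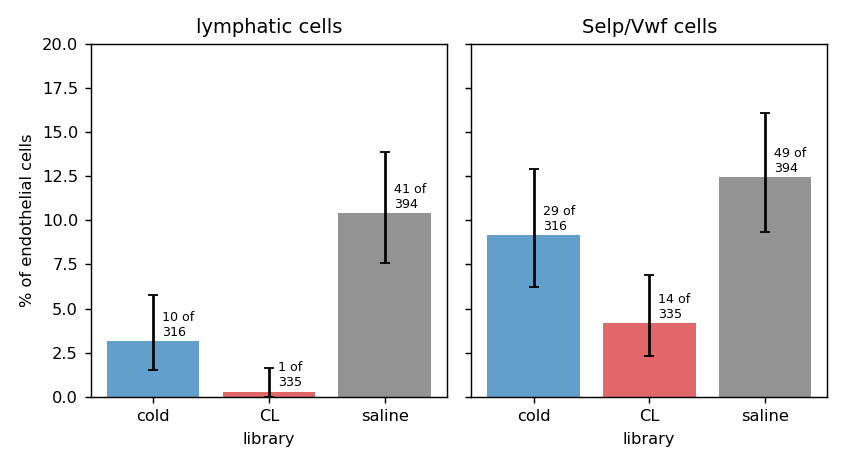
Share of endothelial cells (percent) that were lymphatic (left) or Selp/Vwf cells (right) in the cold, CL and saline libraries, with exact 95% binomial intervals and the counts beside each bar. The saline bar is the highest of each panel, at 10.4% and 12.4%, and the CL bar the lowest, at 0.299% and 4.18%.

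In Selp/Vwf cells, cold and saline were compared by the ratio of CPM with an exact conditional binomial 95% interval, again for counting error only. Among 3330 genes with at least 20 UMIs in the 2 libraries, 355 differed at least 2-fold (10.7 percent), 181 higher (5.44 percent) and 174 lower (5.23 percent) in cold. Without cells of mixed lineage 229 differed at least 2-fold. Of the 15 immediate early genes, which respond within minutes to stress and to tissue dissociation, all had lower values in cold, with a median log2 ratio of -0.38 against 0.04 over all genes, and 2 of 15 passed 2-fold. The median was -1.19 without cells of mixed lineage. Lower values in cold were not particular to Selp/Vwf cells. Together the 15 genes had 11470 CPM in cold and 16762 CPM in saline other endothelial cells, and 6125 and 8187 CPM in leukocytes. Stromal cells had 15546 and 16530 CPM, and lymphatic cells ran the other way, at 19837 and 18841 CPM. Atf3, a stress-induced transcription factor, had 317 CPM in cold and 1029 CPM in saline (-1.70, interval -2.13 to -1.29). Klf6, a zinc finger factor of the list, had 327 and 916 CPM (-1.48, -1.92 to -1.07). Fos had 2401 and 2463 CPM (-0.04, -0.22 to 0.15), within counting error.

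The heat shock list had all 9 members lower (median -0.39) and none past 2-fold, with a median of -1.09 over the 7 still measured without cells of mixed lineage. All 11 genes of the glucocorticoid response list were lower (median -0.57), 3 of them past 2-fold, with a median of -1.06 over 5 without those cells. Both lists were also lower in cold elsewhere. The heat shock list had 3363 CPM in cold and 5172 CPM in saline other endothelial cells, and 3608 and 5273 CPM in leukocytes. The glucocorticoid list had 1790 and 2995 CPM, and 574 and 1060 CPM, in the same classes. In the 10 cold and 41 saline lymphatic cells, 491 of 2176 genes passed 2-fold (22.6 percent), 110 higher (5.06 percent) and 381 lower (17.5 percent). The immediate early list had 8 genes higher and 7 lower, with a median of 0.05 against -0.12 over all genes. Of 9 heat shock genes 7 were lower and 2 higher in these cells, with a median of -0.36 and 2 past 2-fold lower. Of 6 glucocorticoid genes measured, 4 were lower and 2 higher, with a median of -0.69 and 3 past 2-fold lower. Fos had 3647 CPM in cold and 2029 CPM in saline lymphatic cells (0.85, 0.58 to 1.10). The difference between the member classes was not tested.

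**Figure D5:**
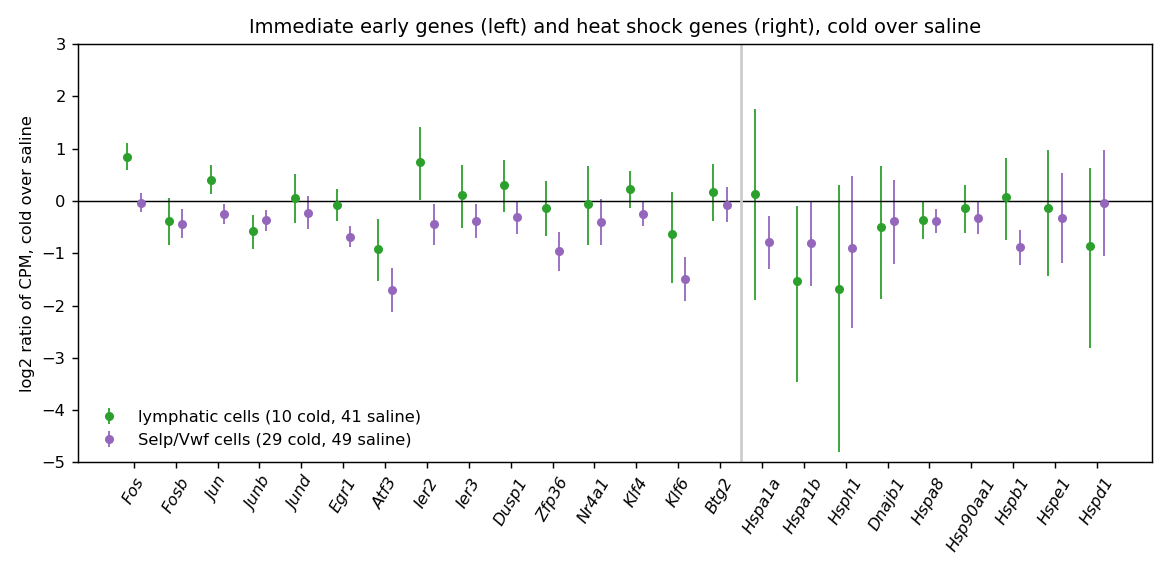
Log2 ratio of CPM, cold over saline, with exact 95% intervals for immediate early genes (left of the line) and heat shock genes (right of it), in lymphatic (green) and Selp/Vwf (purple) cells. The purple points all lie below 0, with Atf3 at -1.70, while the green points lie on both sides.

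Of 8 adhesion genes measured in cold and saline Selp/Vwf cells, 6 lay above 0 and 1, Vcam1, was past 2-fold lower, with a median of 0.09. Vcam1 had 93.6 CPM in cold and 308 CPM in saline (-1.72, -2.56 to -0.95), and Ackr1 had 57.2 and 209 CPM (-1.87, -2.97 to -0.90). Mgp had 3435 and 1415 CPM (1.28, 1.08 to 1.48), and Gja4 had 296 and 86.2 CPM (1.78, 1.01 to 2.61). Id3, an inhibitor of differentiation factors, had 1377 and 594 CPM (1.21, 0.91 to 1.53). The cold-inducible RNA-binding genes were both higher in cold, Rbm3 with 437 and 222 CPM (0.97, 0.45 to 1.51) and Cirbp with 88.4 and 31.8 CPM (1.48, 0.13 to 2.99). Their sum was higher in cold in the other classes too. It was 543 CPM in cold and 341 CPM in saline other endothelial cells, and 632 and 347 CPM in lymphatic cells. Stromal cells had 471 and 265 CPM, and leukocytes 961 and 562 CPM. Rgs5, a pericyte gene, had 780 and 295 CPM (1.40, 0.97 to 1.85), and 5 of 5 mural genes had higher values in cold (median 0.62). The direction was the other way in cells with a Selp UMI, where Rgs5 had 54.1 and 190 CPM and the 2 mural genes measured had a median of -3.50, and at 5% mitochondrial UMIs (median -2.21 over 2 genes). The part of mural UMIs in these ratios was not tested.

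In lymphatic cells, Lrg1 had 1138 CPM in cold and 370 CPM in saline (1.62, 1.10 to 2.14). Fabp4, a fatty acid binding protein, had 9044 and 2386 CPM (1.92, 1.74 to 2.11), and its level was 30831 CPM in the other endothelial cells of the cold library. Lyve1 had 42.2 and 532 CPM (-3.66, -6.72 to -1.77), which rests on 1 cold and 10 saline cells. All 4 measured genes of the lymph node lymphatic list were lower in cold, with a median of -1.49 against -0.12 over all genes. Fibroblast UMIs numbered 4 in cold and 256 in saline lymphatic cells, and their part in these ratios was not tested.

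CL was compared in 14 Selp/Vwf cells, 3 of them with a Selp UMI, against 22 of the 49 saline cells. Of 2296 genes, 443 differed at least 2-fold from saline (19.3 percent), 132 higher (5.75 percent) and 311 lower (13.5 percent). All 15 immediate early genes were lower (median -0.83 against -0.07 over all genes, and -1.60 with each gene's top cell left out), with Jun at 1089 CPM in CL and 2308 CPM in saline (-1.08, -1.48 to -0.70). The immediate early list was also lower in other classes, with 11115 CPM in CL and 16762 CPM in saline other endothelial cells. Stromal cells had 12458 and 16530 CPM. It was not lower in leukocytes, at 8231 and 8187 CPM, nor in the lone CL lymphatic cell. Hspa1a, an inducible chaperone, had 69.2 CPM in CL and 458 CPM in saline Selp/Vwf cells (-2.73, -4.63 to -1.33). Stmn2 had 864 and 358 CPM (1.27, 0.73 to 1.80), and Lrg1 had 190 and 517 CPM (-1.44, -2.49 to -0.55). In the cells with a Selp UMI alone, 3 of them from CL, the Lrg1 ratio was 0.18 (-0.93 to 1.12), within counting error of 0.

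All 6 interferon response genes with enough UMIs were higher in CL than in saline (median 0.69), 2 of them past 2-fold. This was not particular to Selp/Vwf cells. All 16 genes of the list together had 5394 CPM in CL and 3297 CPM in saline Selp/Vwf cells. The other endothelial cells had 7519 and 2894 CPM, stromal cells 12040 and 2632 CPM, and leukocytes 12385 and 2132 CPM. The part of free RNA was not tested. In the cells with a Selp UMI 2 could be measured, of which 1 was higher and 1 lower. Bst2, the antiviral protein tetherin, had 761 and 367 CPM (1.05, 0.49 to 1.60), and -0.33 (-3.45 to 1.68) in the cells with a Selp UMI. Isg15, a ubiquitin-like interferon product, had 346 and 141 CPM (1.30, 0.41 to 2.16). Myh11, a smooth muscle myosin, had 692 and 95.2 CPM (2.86, 2.06 to 3.70), and -0.10 (-2.14 to 1.53) among cells with at least 3 UMIs of the selecting genes. Mural and fibroblast UMIs were 172 and 90 of the CL Selp/Vwf cells' 57838 UMIs, and 214 and 59 of the saline cells' 220506, and their part in these ratios was not tested.

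Between CL and cold, 320 of 2089 genes differed at least 2-fold in Selp/Vwf cells (15.3 percent), 93 higher (4.45 percent) and 227 lower (10.9 percent) in CL. Bst2 was higher, with 761 CPM in CL and 317 CPM in cold (1.26, 0.67 to 1.85), and Plvap lower, with 501 and 1216 CPM (-1.28, -1.89 to -0.72). Among cells with a Selp UMI, 3 from CL and 11 from cold, Plvap had 2010 CPM in CL and 2055 CPM in cold. Among those without a Selp UMI, Plvap was lower in CL. The part of the Selp split in the Plvap ratio was not tested. Klf6 had 657 and 327 CPM (1.00, 0.38 to 1.61), and -1.47 (-3.82 to 0.22) without the cells of mixed lineage. Aqp1, a water channel, had 536 and 1097 CPM (-1.03, -1.63 to -0.48), and Hsp90aa1, a chaperone, had 259 and 748 CPM (-1.53, -2.40 to -0.76). In the cells with a Selp UMI these last ratios were 0.0050 (-0.62 to 0.58) for Aqp1 and 0.54 (-1.48 to 2.15) for Hsp90aa1.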

How the data were processed

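For each library the authors deposited a matrix of raw UMI counts over 28692 genes, written by Cell Ranger 3.0.2, per the file headers. The build is mm10, per the submitters' processing notes, and settings of alignment and cell calling are not stated there. Members and gene lists were chosen with earlier results of these data known, so no list is independent support.

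Counts were summed per class and library. Classes were compared with edgeR 4.0.16 (R 4.3.3; quasi-likelihood, TMM, low counts filtered, library as block, Benjamini-Hochberg). Tested on simulated data for lymphatic against Selp/Vwf cells (3846 genes), the fit called 83 of 100 genes changed by a log2 of 2, 91 of 99 changed by 3, and 3 of 3647 unchanged. The simulation gave all genes the same dispersion and the libraries no treatment difference, and it changed only better expressed genes. These rates therefore need not hold for the real libraries. Treatments have 1 library each, so ratios carry exact intervals and no test. Doublets were called with Scrublet (scanpy 1.11.5) and kept in the main results. Free RNA was not subtracted.

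Named genes are the selecting genes and markers; the 12 (lymphatic over Selp/Vwf) or 8 highest and lowest called genes alike in direction in 3 libraries; the 8 highest and lowest treatment ratios; and up to 4 genes a list. Others, such as Ackr4, Il6 and the genes of the Selp split, were chosen after their values were seen. Alternatives were another normalization, DESeq2 1.42.0, no count filter, no block, stricter gates and leaving out libraries, doublets or cells of mixed lineage.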

Additional observations from a re-analysis of the deposited data

How the results depend on the processing

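Lymphatic over Selp/Vwf cells had 544 called genes, 354 with DESeq2, 357 with at least 3 UMIs of the selecting genes, 329 without cells of mixed lineage and 12 with at most 5% mitochondrial UMIs. Leaving out a library gave 144 (without saline), 262 (without cold) and 502 (without CL). Selp/Vwf over other endothelial cells had 468, and 287, 248 and 76 with DESeq2, without mixed lineage and at 5% mitochondrial UMIs, with 198 to 376 without a library (198 without cold, 284 without saline). Lymphatic over other endothelial cells had 722, and 123 at 5%, with 247 to 731 without a library (247 without saline, 429 without cold). Without the replicate block, which here is the library, the counts were 443, 374 and 669; it changed 3 calls among the named genes of the first comparison and none in the others. DESeq2 size factors in edgeR moved the median of all genes to -0.17 from -0.05 for lymphatic over Selp/Vwf cells, with 170 genes higher and 425 lower, and to -0.23 from -0.08 for lymphatic over other endothelial cells, with 231 and 559. No named gene reversed in these 3 comparisons. At 5% mitochondrial UMIs the cold, CL and saline shares were 1.45, 0 and 6.49% lymphatic and 4.35, 1.32 and 7.79% Selp/Vwf; with 3 selecting UMIs Selp/Vwf cells were 7.44, 2.73 and 8.31%; at 1000 genes the shares were 2.99, 0.465 and 14.1% lymphatic and 10.4, 5.58 and 17.5% Selp/Vwf. In Selp/Vwf cells, genes past 2-fold in cold over saline were 355, and 158 at 5% mitochondrial UMIs, 229 without mixed lineage, 97 with 40 UMIs, 183 in cells with a Selp UMI and 230 in those without. CL over saline had 443, and 133, 147, 180 and 256 at 5%, with 40 UMIs, with and without a Selp UMI. CL over cold had 320, and 74, 134, 83 and 94 at 5%, without mixed lineage, with 40 UMIs and with a Selp UMI, and 507 with each gene's top cell left out. The splits by Selp were chosen after seeing the data. CL over saline ratios that reversed were Myh11 (-0.10, 3 selecting UMIs), Tsc22d2 (0.040, without mixed lineage) and, in cells with a Selp UMI, Lrg1 (0.18), Bst2 (-0.33), Angptl4 (0.042) and Fam43a (0.38). CL over cold reversed for Klf6 (-1.47, without mixed lineage) and, with a Selp UMI, for Aqp1 (0.0050) and Hsp90aa1 (0.54). The cause was not tested. The intervals of the reversed ratios reach past 0, and the CL sums of Tsc22d2, Angptl4 and Fam43a were 0 there and stand at the floor of 3 counts. In cold over saline Selp/Vwf cells, the immediate early median lay between -1.19 and -0.35 over the alternatives and the heat shock median between -1.34 and -0.34.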
